A study of Rattus norvegicus with 36 samples.

Results

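The transcripts of 8 genes of neuropeptide signaling and sensory neurons were followed in the lungs of rats given DQ-12, a dust of crystalline silica that served as a positive control for lung toxicity. The 8 genes were the neuropeptide precursors Tac1, Calca, Calcb and Vip, the tachykinin receptors Tacr1 and Tacr2, the peptide-degrading enzyme Mme and the sodium channel Scn10a. They were selected by name, as every probe other than a control whose gene name on the array was one of these 8, which gave 8 of the 25597 gene names and 9 of the 45598 probes (2 for Calca, 1 for each other gene). Each of the 8 passed the filter on dim probes and was among the 23721 genes tested. The set was put together with the exposure response of these arrays already known, and Scn10a belongs to a gene list that the study chose on these samples, so that the DQ-12 changes of the 8 genes are given below as a description, without p-values.

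Female Sprague Dawley rats, 13 weeks old, were instilled through the trachea with DQ-12 (10 mg/rat, suspended in sterile saline) or with the saline alone (vehicle). All groups were anesthetized with Domitor and Ketamine and woken with Antisedan. Lungs were taken 1, 30 or 180 days later (D1, D30 and D180), with 6 rats per group and 6 groups. Total RNA of the accessory lobe, a part of the lung that was not lavaged, was labeled with Cy3 and each rat was hybridized to its own single-color Agilent array, giving 36 arrays. The dust was given once at a single dose, so that each time point compares 1 dose with vehicle, and the rats of D180 were also older than those of D1.

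Substance P and neurokinin A, both cut from the Tac1 precursor, and calcitonin gene-related peptide (CGRP), from Calca and Calcb, are released by sensory nerve endings in the airways, where they dilate vessels, make them leak and contract airway smooth muscle. Vasoactive intestinal peptide, from Vip, relaxes airway and vascular smooth muscle. The cell bodies of the sensory neurons lie in ganglia outside the lung, whereas pulmonary neuroendocrine cells, some immune cells and other lung cells can also make these peptides. In a whole lobe, fewer cells of a type and less RNA per cell cannot be told apart.

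The probes that carry the values below are shown because 1 probe stands for each gene, and for Calca the 2 probes gave different answers. Each is 60 bases long, of which the first 30 are given 5′ to 3′ as on the array. Positions are those of the rn4 build given in the array files. The exon or untranslated region that each probe lies in was not analysed here.
Tac1, chr4:32657551-32657610, plus strand: caatgtacttctctggtcttcagtcattgt
Scn10a, chr8:124578227-124578286, minus strand: tgcatgctcacagctgccggacaatacctg
Calca, probe used, chr1:172686200-172686259, minus strand: gactcaatggaaccatatgcttaaagaact
Calca, second probe, chr1:172689248-172689307, minus strand: aggcatggccactctcagtgaagaagaagc
Calcb, chr1:172780881-172780940, plus strand: aaatatgatggtgtctcctgctggcatcct
The Calca probe used is listed in the array files for 2 RefSeq transcripts and the second for 3, and Calca and Calcb are next to each other in the RefSeq gene table of GRCr8. The Tac1 probe is listed for 4 transcripts and that of Scn10a for 3.

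The arrays differed moderately in quality. Between 61.0 and 80.6% of the spots were well above background, and the lowest correlation between arrays of the same group was 0.948. The 8 lung epithelium markers examined (surfactant proteins, Ager and others) were well above background on all arrays. Arrays were scanned on 11 dates, none of which held more than 1 time point. At D1, all 6 DQ-12 arrays shared a scan date with 1 vehicle array, and the other 5 vehicle arrays were scanned on other dates.

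After DQ-12, Tac1 was lower and Scn10a higher than in vehicle rats at each time point, whereas Calcb, Vip, Mme and Tacr2 passed the thresholds at none. A gene was called when it differed 2-fold or more with a limma p, adjusted over all genes, below 0.05. By this rule, 3 of the 8 genes were called at D1 (Tac1 lower, Scn10a and Tacr1 higher), where 3.12% of all genes tested were called. At D30, 2 of the 8 were called (Tac1 lower, Scn10a higher), with 1.06% of all genes called. At D180, 3 of the 8 were called (Tac1 and Calca lower, Scn10a higher), with 3.67% of all genes. The 8 genes had a median log2 change of 0.02 (D1), 0.09 (D30) and 0.13 (D180), and all genes one of −0.01, −0.02 and −0.03. The genes thus moved in both directions. Because the 8 were chosen on this contrast, nothing is read from their share.

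**Figure D1:**
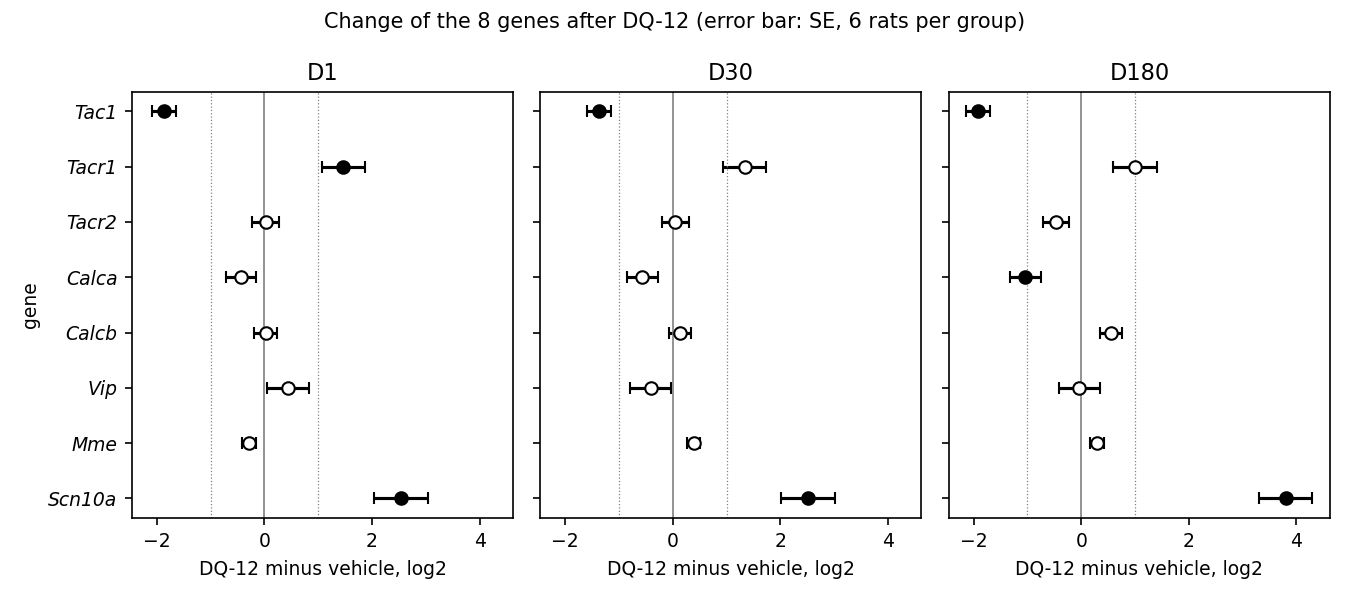
DQ-12 minus vehicle on the log2 scale (x axis) for the 8 genes (rows) at D1, D30 and D180, with the standard error of the fit (6 rats per group). Filled points passed both thresholds, and dotted lines mark a 2-fold change. Tac1 lay between −1.38 and −1.91 and Scn10a between 2.51 and 3.80. The vehicle groups of Scn10a at D180 and of Tacr1 at D1 had no array well above background, so that these points have no exact size. Against the detection level (the lowest signal well above background on each array), the changes were 7.65- and 1.65-fold.

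Among the ligands, Tac1 was well above background on all 36 arrays and lower after DQ-12 at each time point. At D1, the normalized log2 signal of the vehicle rats ran from 7.60 to 8.62, with a median of 8.14, and that of the exposed rats from 5.51 to 6.68, with a median of 6.43. At D30, vehicle rats lay between 8.32 and 9.44 (median 8.99) and exposed rats between 7.07 and 8.11 (median 7.60). At D180, the ranges were 8.77 to 9.54 (median 9.39) and 6.54 to 7.83 (median 7.64), respectively. All 6 DQ-12 rats were below all 6 vehicle rats at each time point, a pattern held by 6.04, 0.561 and 3.5% of all genes at D1, D30 and D180. The log2 change was −1.87, −1.38 and −1.91 (SE 0.23 each), or 3.66-, 2.60- and 3.77-fold lower. With 1 rat left out, it stayed between −1.98 and −1.72 at D1, between −1.51 and −1.27 at D30 and between −2.03 and −1.74 at D180. With the normexp background correction, the change at D1 was −1.25, and still called.

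Time contrasts in the vehicle rats were not used to choose the genes, but they rest on the vehicle arrays of the comparisons above. Their p-values are therefore not independent of the choice. Tac1 also changed with time in the vehicle rats. It was 0.84 higher (log2, SE 0.23) at D30 than at D1 (adjusted p = 0.0206, limma over all genes, which 6.59% of all genes passed by the adjusted p alone), under the 2-fold threshold that, with the adjusted p, 2.77% of all genes passed, and 1.18 higher at D180 than at D1 (SE 0.23, adjusted p = 0.000967), where 1.76% of all genes were called, and all 6 vehicle rats of D180 were above all 6 of D1. From D30 to D180 the change was 0.34 (SE 0.23, adjusted p = 0.365). Ordered by mean, the groups were vehicle D180 (9.32 ± 0.29, SD, n = 6), vehicle D30 (8.99 ± 0.40), vehicle D1 (8.14 ± 0.36), DQ-12 D30 (7.61 ± 0.39), DQ-12 D180 (7.41 ± 0.48) and DQ-12 D1 (6.27 ± 0.43). Each group overlapped in range with the next in this order. Time after instillation cannot be told apart from age or scan date here. The rise from D1 to D30 passed the test neither with scan date as a random block (adjusted p = 0.164) nor without vehicle rat 3 of D1 (0.0535) or vehicle rat 2 of D30 (0.0585). That from D1 to D180 fell just short of 2-fold with the normexp background correction (log2 change 0.995).

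**Figure D2:**
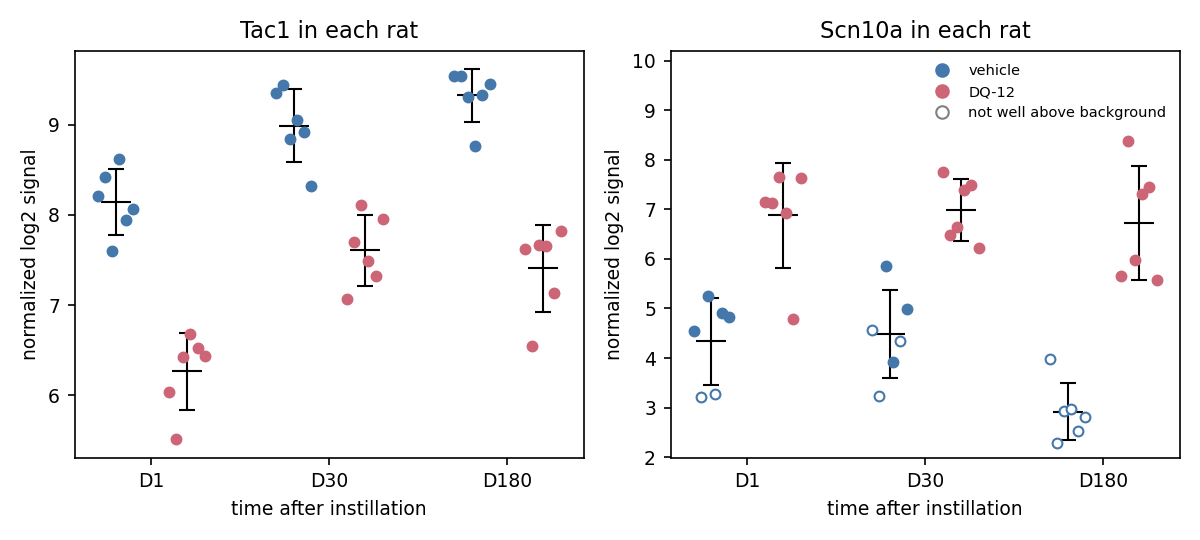
Normalized log2 signal (y axis) of Tac1 and Scn10a in each rat at D1, D30 and D180 (x axis). Points are rats, open where the spot was not well above background, and bars show the mean ± SD of 6 rats. The Tac1 groups do not overlap at any time point, whereas 1 DQ-12 rat of D1 had an Scn10a signal of 4.80, inside the vehicle range.

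Calca encodes calcitonin and the alpha form of CGRP, through alternative splicing. With the probe used (the brighter on average), the D1 signals were 6.14 to 7.41 (median 6.57) with vehicle and 5.73 to 6.81 (median 6.09) with DQ-12. At D30, the ranges were 5.93 to 7.40 (median 7.20) and 5.81 to 6.58 (median 6.38). At D180, they were 6.77 to 7.18 (median 6.98) and 4.79 to 6.98 (median 6.08). The groups overlapped at each time point, and the DQ-12 rats of D180 were far more spread (SD 0.81) than the vehicle rats (SD 0.14). The log2 change was −0.44, −0.57 and −1.04 (SE 0.29), and only that of D180 was called. The call was lost without vehicle rat 3, DQ-12 rat 1 or DQ-12 rat 3 of D180, with the median of both probes (log2 change −0.63), with the normexp background correction (−0.52), with D180 fitted alone (−1.04) and with slide as a fixed block (−1.83).

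The second Calca probe gave another order of time points, with differences in means of −1.01 at D1, −0.64 at D30 and −0.23 at D180. At D1, its vehicle rats ran from 4.89 to 9.29, the highest signal being that of vehicle rat 5 and the next 6.92. This rat also had the highest vehicle signal of D1 with the probe used (7.41). The place of D1 in the order rests on it. By medians, the gap was larger at D30 (5.79 with vehicle, 5.05 with DQ-12) than at D1 (6.24 and 5.58). Over the 36 arrays the 2 probes correlated with r = 0.47, and r was 0.52 after the group means were removed. The fall of Calca at D180 is therefore a measurement of 1 of 2 probes.

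Calcb, which encodes the beta form of CGRP, did not follow Calca. Its log2 change was 0.02, 0.13 and 0.55 (SE 0.21), and none was called. The signal at D180 was 6.29 to 7.43 (median 6.79) with vehicle and 6.72 to 8.30 (median 7.21) with DQ-12, where 3 rats were above all vehicle rats. In vehicle rats, Calcb was 0.67 lower at D30 than at D1 (SE 0.21, adjusted p = 0.0490), with all 6 rats of D30 below all 6 of D1. That value lies at the threshold, which it missed without each of 11 of the 12 rats in turn (adjusted p up to 0.106) and with scan date as a random block (adjusted p = 0.210). As for Tac1, the vehicle arrays are those of the DQ-12 comparisons.

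**Figure D3:**
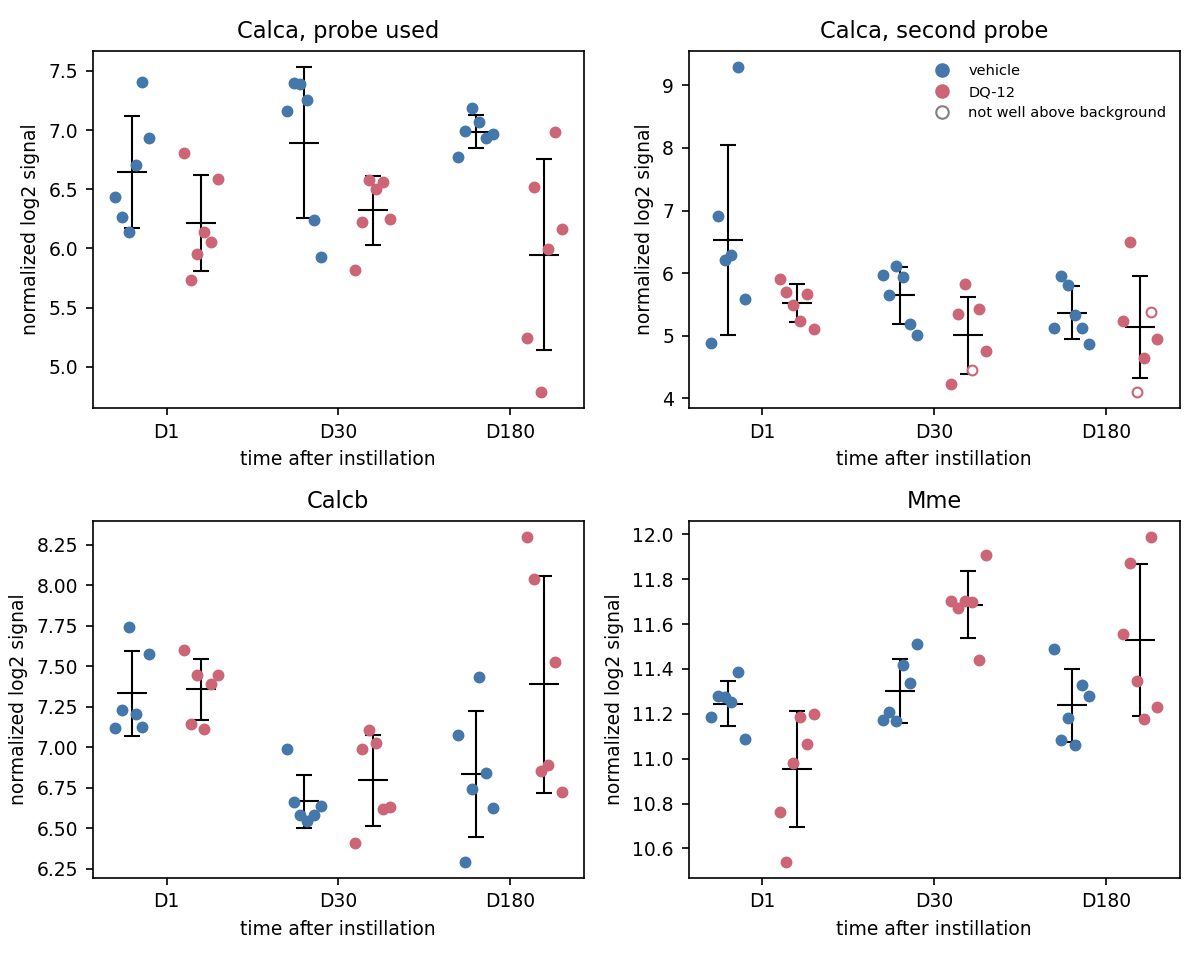
Normalized log2 signal (y axis) in each rat for the 2 Calca probes, Calcb and Mme at D1, D30 and D180 (x axis), drawn as points with the mean ± SD of 6 rats, open where not well above background. The difference in means was most negative at D180 for the Calca probe used (−1.04, called). For the second probe it was so at D1 (−1.01), where 1 vehicle rat lay at 9.29. That of Mme was −0.29 at D1 and 0.38 at D30, called at no time point.

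Vip was at the limit of detection. It was well above background in 4 vehicle and 2 DQ-12 rats at D1, in 2 and none at D30, and in 2 and 1 at D180. Its signals ran from 2.16 to 4.84 in vehicle rats and from 2.52 to 4.53 in DQ-12 rats over the 3 time points. The log2 change was 0.44, −0.42 and −0.03 (SE 0.39), none of which was called. A change of Vip smaller than the background was not detectable on these arrays.

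Of the 2 tachykinin receptors, Tacr1, the receptor that binds substance P most tightly, was dim and higher after DQ-12, and Tacr2, which binds neurokinin A, was not called. At D1, Tacr1 was well above background in no vehicle rat (2.19 to 3.30, median 2.59) and in 2 DQ-12 rats (3.38 to 4.84, median 4.00). Against the detection level, it was 1.65-fold higher. All 6 DQ-12 rats of D1 were above all vehicle rats, which 5.28% of all genes were. At D30, Tacr1 was well above background in 1 vehicle rat (2.55 to 5.26, median 3.50) and 4 DQ-12 rats (4.25 to 6.36, median 4.76). At D180, 1 vehicle rat (2.19 to 4.30, median 3.33) and 3 DQ-12 rats (3.74 to 5.54, median 4.03) were. The groups overlapped at D30 and D180, and the log2 changes of 1.33 and 1.00 (SE 0.41) were not called. The size of these changes rests on the background correction: with the normexp method the log2 change was 0.21, 0.28 and 0.20 at D1, D30 and D180, and the call at D1 was lost. It was lost as well with scaling to the 75th percentile and with scan date or slide as a random block.

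Tacr2 was well above background on 5 or 6 arrays of each group. Its log2 change was 0.02 at D1, 0.04 at D30 and −0.47 at D180 (SE 0.25). At D180, the signal was 5.25 to 6.37 (median 5.75) with vehicle and 4.76 to 5.64 (median 5.48) with DQ-12, so that the groups overlapped.

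Mme encodes neprilysin, the membrane peptidase that cleaves substance P and other peptides outside the cell. It was bright on all 36 arrays and its changes were small. At D1, the vehicle signals were 11.1 to 11.4 (median 11.3) and the DQ-12 signals 10.5 to 11.2 (median 11.0). At D30, they ran from 11.2 to 11.5 (median 11.3) and from 11.4 to 11.9 (median 11.7), with 5 DQ-12 rats above all vehicle rats. At D180, 3 DQ-12 rats were above all vehicle rats. The log2 change was −0.29, 0.38 and 0.29 (SE 0.12), none of it called. Leaving out 1 rat kept it between −0.34 and −0.21 at D1 and between 0.34 and 0.43 at D30.

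Scn10a encodes a voltage-gated sodium channel that resists tetrodotoxin and is known from nociceptive sensory neurons. Its signal at D1 was 3.22 to 5.26 (median 4.69) with vehicle and 4.80 to 7.66 (median 7.14) with DQ-12. At D30, it was from 3.24 to 5.85 (median 4.45) and from 6.23 to 7.76 (median 7.01). At D180, it was from 2.29 to 3.98 (median 2.88) and from 5.58 to 8.37 (median 6.64). All 6 DQ-12 rats were above all vehicle rats at D30 and D180, which 1.83 and 3.89% of all genes showed, and 5 of 6 were at D1.

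All DQ-12 rats had an Scn10a signal well above background, compared with 4, 3 and none of the 6 vehicle rats at D1, D30 and D180. The log2 change was 2.54 at D1 and 2.51 at D30 (SE 0.50), 5.83- and 5.70-fold higher. At D180, no vehicle rat was well above background, and against the detection level Scn10a was 7.65-fold higher (fitted log2 change 3.80). Without DQ-12 rat 5 of D1, the log2 change at D1 was 2.96. With the normexp method it was 1.08, 1.03 and 1.26 at D1, D30 and D180, and each was still called.

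In vehicle rats, no array of D180 had an Scn10a signal well above background, and against the detection level Scn10a was 1.62-fold lower than at D30. The vehicle arrays also entered the DQ-12 comparisons known when the gene was chosen, so that p-values here are not independent of the choice. The fitted change was 1.56 lower on the log2 scale (SE 0.50, adjusted p = 0.0369) and was called, as were 2.73% of all genes. That call was lost without each of 8 of the 12 rats in turn, with adjusted p from 0.0524 to 0.0950, and the change was −0.35 with the normexp background correction and −1.27 with scaling to the 75th percentile, neither of them called. The DQ-12 medians of Scn10a, 7.14 (SD 1.06), 7.01 (SD 0.63) and 6.64 (SD 1.15), differed by less than the spread between rats (n = 6).

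Scn11a, another channel of sensory neurons, named here for its place near Scn10a in the RefSeq gene table and not for its values, was well above background on 0 to 3 arrays of a group, with log2 changes of −0.20, −0.34 and −0.31 (SE 0.35). Of the 12 voltage-gated sodium channel genes tested other than Scn10a, 0 were called at any time point (limma), and 0, 0 and 3 had an unadjusted p under 0.05 at D1, D30 and D180. Of all genes tested, 3.12, 1.06 and 3.67% were called. The share of all genes under an unadjusted p was not taken, and nothing is read from these counts. By the adjusted p alone, 2 of the 12 channel genes were lower at D180, among them Scn3b, an auxiliary subunit, with a log2 change of −0.72 (SE 0.21, adjusted p = 0.0121).

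Because scan date was uneven between groups, the differences were also taken within each date that held both. Tac1 was lower after DQ-12 within all 5 dates, by log2 changes of −1.33 at D1 (6 DQ-12 rats and 1 vehicle rat), −1.69 and −1.28 at D30 and −1.93 and −2.40 at D180. Scn10a was higher within all 5, by 1.62 at D1 and by 3.20 and 2.01 at D30, with no exact size at D180, where no vehicle array was well above background. Calca differed by 0.08 at D1, −0.12 and −1.04 at D30 and −1.49 and −0.01 at D180. The direction of Tac1 and Scn10a was thus the same in each date, whereas the change of Calca was not found in each. Tacr1 was higher within all 5 dates but lower by −0.26 within 1 of the 5 slides that held both groups, and at most 1 vehicle array of a time point was well above background. With scan date as a fixed block, which at D1 compares the groups through 1 vehicle array, none (0) of the 8 genes passed at D1, 2 did at D30, and 4 did at D180, where Tacr1 joined. Slide as a fixed block left 0 called at D1 and at D180, where 1 slide held 1 rat of each group, with log2 changes of −1.48 and −1.14 for Tac1, and 1.42 for Scn10a at D1. Fewer of all genes tested were called as well with these fixed blocks at D1, and with slide at D180. With scan date or slide as a random block, Tac1 and Scn10a were called at all 3 time points.

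**Figure D4:**
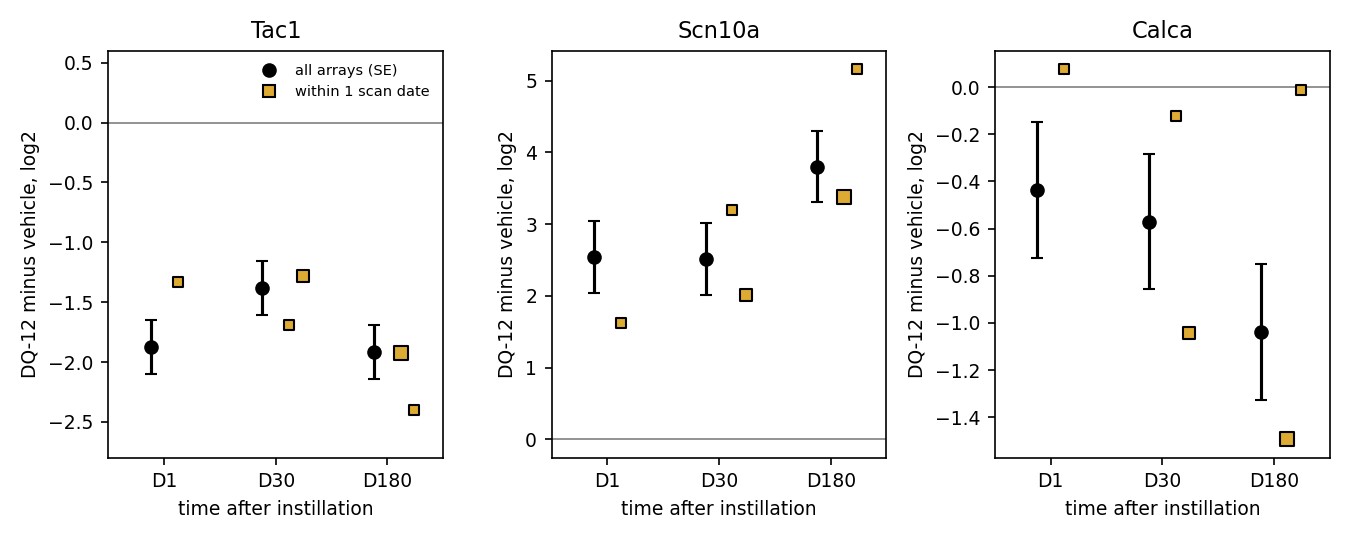
DQ-12 minus vehicle on the log2 scale (y axis) for Tac1, Scn10a and Calca at D1, D30 and D180 (x axis). Circles show the fit to all arrays with its SE, and squares the difference of means within 1 scan date, larger where the smaller group had more arrays. The squares lie on the same side of 0 as the circles for Tac1 and Scn10a, and near 0 on 3 of 5 dates for Calca. At D180, no vehicle array had an Scn10a signal well above background, so that its points there show a direction and no exact size.

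Neuron and nerve sheath markers were set beside these changes. Of 15 neuron genes, 14 were tested, 3 of them were well above background on all arrays, and Snap25, a synaptic protein gene, on none. Their summed level ran from 9.90 to 10.39 in vehicle and 9.88 to 10.62 in DQ-12 rats at D1, from 9.45 to 9.88 and 9.39 to 9.64 at D30, and from 9.89 to 10.48 and 9.92 to 10.15 at D180. These ranges overlapped at each time point, and the part of nerve fibers in the change of Tac1 was not tested. By the adjusted p, 0 of the 14 passed at D1 and D30, and 1 was higher and 2 lower at D180, with a median log2 change of −0.31. Of all genes, 16.5, 4.06 and 17.1% passed it at D1, D30 and D180. The only neuron gene called was Tubb3, a neuronal tubulin, which was higher at D180 (log2 change 1.43, SE 0.27, adjusted p = 0.000208).

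Other marker sums were lower after DQ-12 as well. The summed level of 7 lung fibroblast genes was separate between the groups at each time point, from 15.07 to 15.25 in vehicle and 14.62 to 14.91 in DQ-12 rats at D1, from 15.05 to 15.32 and 14.81 to 15.04 at D30, and from 14.98 to 15.23 and 14.25 to 14.89 at D180. That of 7 endothelial genes was separate at D1 (16.75 to 16.96 and 16.43 to 16.72) and at D180 (16.95 to 17.12 and 16.10 to 16.82), and overlapped at D30. At D180, all 7 endothelial genes were lower by the adjusted p, which 17.1% of all genes passed in either direction. No gene of either list reached a 2-fold change with an adjusted p under 0.05.

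At D180, when Calca was also called, the summed level of 8 Schwann cell genes was from 13.84 to 14.06 in vehicle rats and from 13.31 to 13.63 in DQ-12 rats, and S100b, a glial calcium-binding protein gene, was called lower (log2 change −1.18, SE 0.31, adjusted p = 0.00640). That of 10 pulmonary neuroendocrine genes was from 10.66 to 11.14 and from 10.40 to 10.65, with 0 genes called, 1 lower by the adjusted p, and Syp well above background on no array. The sums of 7 smooth muscle genes overlapped narrowly (13.47 to 13.89 and 12.93 to 13.50), with 4 genes lower by the adjusted p. At D1, 0 Schwann cell and 0 neuroendocrine genes passed the adjusted p, and their sums overlapped. Of the smooth muscle genes, 2 were higher and 0 lower by the adjusted p at D1, which 16.5% of all genes passed in either direction. Their sums at D1 ran from 13.89 to 14.24 in vehicle and from 14.18 to 14.87 in DQ-12 rats. The part of these cell types in the changes of Tac1 and Calca was not tested.

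Some neutrophil and macrophage genes were called higher after DQ-12. At D180, 5 of 7 neutrophil and 3 of 7 macrophage genes were called higher, compared with 2 and 2 at D30 and 1 and 0 at D1. Of all genes tested, 3.67, 1.06 and 3.12% were called in either direction at D180, D30 and D1. By the adjusted p, Fpr1, a formyl peptide receptor gene of neutrophils, was lower at D30 and D180, and Cd163, a scavenger receptor gene of macrophages, at D180. The median log2 change was 0.42, 0.83 and 1.55 for the neutrophil list and 0.11, 0.15 and 0.13 for the macrophage list at D1, D30 and D180. Neutrophil sums ran from 13.04 to 13.97 in vehicle rats and from 15.52 to 16.04 in DQ-12 rats at D180, and from 13.08 to 14.24 and 13.41 to 14.66 at D1. At D1 these ranges overlapped. Neutrophil sums were separate at D30 as well (12.90 to 14.07 in vehicle and 14.43 to 15.92 in DQ-12 rats). Macrophage sums overlapped at D1. They were separate at D30 (12.28 to 12.53 and 12.98 to 13.45) and at D180 (12.70 to 13.22 and 13.99 to 14.60). Of 7 mast cell genes, 2 were called higher at D180, and by the adjusted p 4 were higher and 1 lower. Their sums at D180 overlapped, with a median of 13.36 in vehicle and 13.21 in DQ-12 rats. The sums of 7 skeletal muscle genes, from 8.91 to 13.40 over all arrays, overlapped at each time point, and 1 gene was called higher at D1. The part of these cell types in the change of Scn10a was not tested.

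Besides the 8 genes, 90 genes of the same signaling systems were examined, of which 83 were tested. At D1, 2 were called higher and 0 lower (2.41% of those tested, against 3.12% of all genes), at D30, 1 higher and 0 lower (1.2% against 1.06%), and at D180, 2 higher and 1 lower (3.61% against 3.67%). The lists were drawn up with earlier results of these arrays known. By the adjusted p alone, which 16.5, 4.06 and 17.1% of all genes passed at D1, D30 and D180, 4 were higher and 8 lower at D1, 2 and 1 at D30, and 3 and 22 at D180. The median log2 change of the 83 genes was −0.09, −0.11 and −0.18. At D1, 65.6% of the calls over all genes were higher, or 36.7% with scaling to the 75th percentile. The pathway genes called were Tac4, Iapp and Penk.

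Tac4 encodes another tachykinin precursor, whose peptides also bind the receptor encoded by Tacr1. It was well above background on all 36 arrays and called higher at D1 and D180. At D1, it ran from 6.64 to 7.56 in vehicle rats and from 7.30 to 9.71 in DQ-12 rats, a log2 change of 1.39 (SE 0.33, adjusted p = 0.00359), with 4 DQ-12 rats above all vehicle rats. At D30, the change was 0.65 (SE 0.33, adjusted p = 0.337). At D180, it ran from 6.55 to 7.80 in vehicle rats and from 8.33 to 10.1 in DQ-12 rats, without overlap, a change of 2.14 (SE 0.33, adjusted p = 1.44e-05). The call at D1 was lost with scan date as a random block (log2 change 1.33, adjusted p = 0.0527) and with scan date or slide as a fixed block, and that at D180 with slide as a fixed block (log2 change 1.36).

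Tac3, the third tachykinin precursor gene, had log2 changes of −0.13, −0.02 and −0.15 (SE 0.32, adjusted p 0.844, 0.993 and 0.828). Tacr3, the receptor of its peptide, was well above background on at most 1 array of a group. Peptidases of the list did not reach a 2-fold change. Dpp4, which trims peptides at their amino end, had a log2 change of −0.70 at D1 (SE 0.12, adjusted p = 0.000129), where the groups did not overlap. The change of Ace, the angiotensin-converting enzyme, which also cleaves substance P, was −0.22, −0.38 and −0.68 at D1, D30 and D180 (SE 0.13, adjusted p 0.265, 0.0876 and 0.000198).

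Iapp encodes amylin, a pancreatic hormone related to CGRP. It was higher in DQ-12 rats at all 3 time points. At D1, it ran from 6.13 to 6.83 in vehicle rats and from 8.19 to 9.40 in DQ-12 rats (log2 change 2.28, SE 0.25, adjusted p = 7.42e-08). At D30, it ran from 6.21 to 6.81 and from 7.18 to 8.05 (1.15, SE 0.25, adjusted p = 0.00527), and at D180, from 5.50 to 7.36 and from 7.35 to 8.84 (1.62, SE 0.25, adjusted p = 1.67e-05). The groups were separate at D1 and D30 and overlapped narrowly at D180. At D1, Iapp was called also with scan date or slide as a fixed block. The call at D30 was lost with the normexp background correction (log2 change 0.72), and that at D180 with slide as a fixed block (log2 change 1.36).

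**Figure D5:**
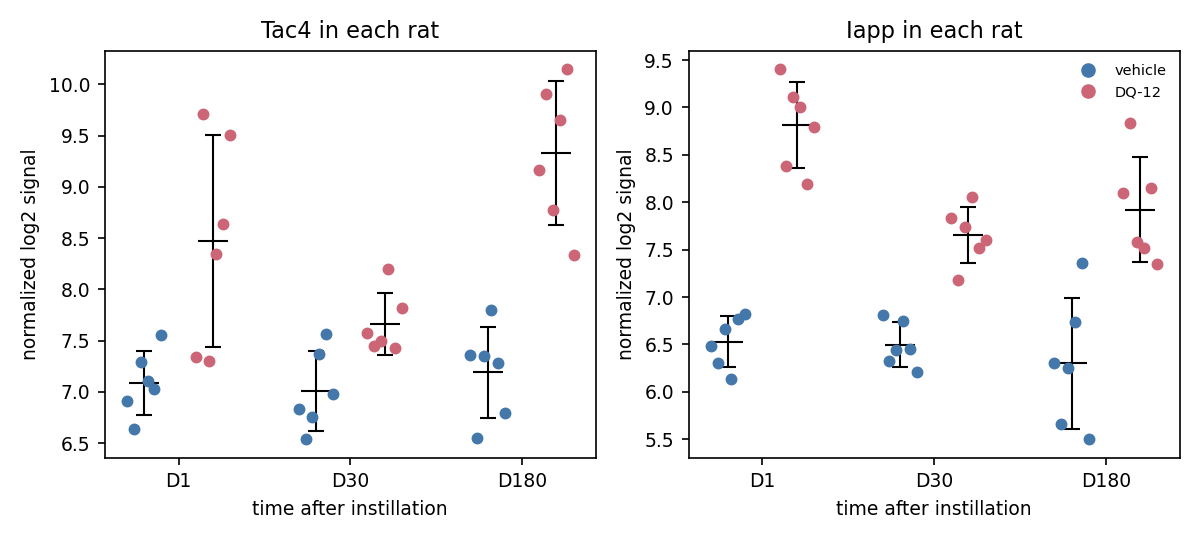
Normalized log2 signal (y axis) of Tac4 and Iapp in each rat at D1, D30 and D180 (x axis), with the mean ± SD of 6 rats. Tac4 was higher after DQ-12 at D1 (1.39) and D180 (2.14) and Iapp at all 3 time points (2.28, 1.15 and 1.62).

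The receptor of CGRP is formed by the products of Calcrl and Ramp1, named here for that role. Calcrl had log2 changes of −0.50, −0.25 and −0.58 (SE 0.11, adjusted p 0.00212, 0.258 and 0.000319) at D1, D30 and D180, and those of Ramp1 were −0.38, −0.13 and −0.08 (SE 0.13, adjusted p 0.0431, 0.747 and 0.751). Neither reached a 2-fold change. Vipr1, a receptor of vasoactive intestinal peptide, was lower at D180 by −0.96 (SE 0.14, adjusted p = 3.5e-06), with all DQ-12 rats below all vehicle rats and just short of a 2-fold change. With slide as a fixed block its adjusted p at D180 was 0.155.

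Penk, the precursor of the enkephalin opioid peptides, was called lower at D180, where it was well above background in 5 vehicle rats (3.84 to 5.00) and in no DQ-12 rat (2.15 to 3.84). Against the detection level, it was 1.46-fold lower (fitted log2 change −1.32, adjusted p = 0.000648). The fitted change was −0.24 with the normexp background correction and −0.94 with scan date as a fixed block, and neither was called. With slide as a fixed block no difference was left (adjusted p = 1). Galr2, a galanin receptor, was higher by 0.62 at D1 (SE 0.17, adjusted p = 0.0123), 0.62 at D30 (adjusted p = 0.0365) and 0.60 at D180 (adjusted p = 0.0150). The D30 value lies near the threshold, which it missed without each of 7 of the 12 rats in turn (adjusted p from 0.0502 to 0.101), with scan date as a random block (0.0552) and with scan date or slide as a fixed block.

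Of 9 genes of neuropeptide processing tested, 0 were called at any time point (limma), with 3, 1 and 2 under an unadjusted p of 0.05 at D1, D30 and D180. Of all genes tested, 3.12, 1.06 and 3.67% were called, and the share under an unadjusted p was not taken. Nothing is read from the counts called or under an unadjusted p, for this list and those below. Pam, the enzyme that amidates substance P and CGRP, was lower at D180 with a log2 change of −0.64 (SE 0.10, adjusted p = 1.86e-05), and Cpe, a carboxypeptidase of secretory granules, at D1 with −0.47 (SE 0.13, adjusted p = 0.0124) and at D180 with −0.68 (adjusted p = 0.000291). At D1, the Cpe value missed the threshold with scan date as a random block (adjusted p = 0.142). Of 15 neurotrophin and receptor genes, 0 were called, with 7, 2 and 9 under an unadjusted p of 0.05, and 7 were lower at D180 by the adjusted p alone. Gfra3, the artemin receptor of sensory neurons, had a log2 change of −0.88 at D1 (SE 0.21, adjusted p = 0.00288), and Gfra1, a receptor of glial cell line-derived neurotrophic factor, of −0.61 at D180 (SE 0.12, adjusted p = 0.000495).

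Among 13 transduction channels and receptors, 0 were called, with 2, 0 and 4 under an unadjusted p of 0.05. Asic1, an acid-sensing channel, was lower by the adjusted p at D1 (log2 change −0.78, SE 0.17, adjusted p = 0.00200) and D180 (−0.63, adjusted p = 0.00945). At D1, it missed the threshold with scan date as a random block (adjusted p = 0.0587), and at both time points with scan date or slide as a fixed block (adjusted p from 0.0722 to 0.809). With a fixed block, the values of Dpp4, Gfra3 and Galr2 at D1 (scan date or slide), Scn3b at D180 (scan date or slide) and Pam and Gfra1 at D180 (slide) also missed it. At D30, the smallest adjusted p of the lists without a gene past the threshold belonged to Artn (log2 change −0.45, adjusted p = 0.0979), Piezo2 (−0.41, 0.318) and Vipr1 (−0.29, 0.286), among others, and at D1 to Scn4a (0.73, 0.192). Trpv1, the capsaicin receptor of nociceptors, was well above background on at most 2 arrays of a group.

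Over the 36 arrays and 23516 genes without missing values, the genes whose signal followed Tac1 most closely were Popdc2 (Pearson r = 0.92), Rin2 (0.90) and Mpp5 (0.90). With the group means removed, these values were 0.46, 0.50 and 0.61. Popdc2, a gene known from heart and skeletal muscle, had log2 changes of −0.64, −0.47 and −0.67 at D1, D30 and D180. The summed level of 8 cardiac muscle genes ran from 14.8 to 15.8 in vehicle rats and 15.0 to 15.6 in DQ-12 rats at D1, from 15.2 to 16.2 and 15.0 to 15.6 at D30, and from 15.4 to 15.8 and 14.7 to 15.5 at D180. These ranges overlapped at all 3 time points, with 0 genes called (limma). By the adjusted p, 0, 1 and 4 of the 8 were lower at D1, D30 and D180, and 0, 4 and 7 had an unadjusted p under 0.05. The median log2 change of the list at D180 was −0.49.

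The genes closest to Scn10a were Kng2, a kininogen (r = 0.89), Endod1 (0.87) and Rhbdl2 (0.87), which fell to 0.63, 0.57 and 0.56 with the group means removed. Kng2 had log2 changes of 1.52, 1.35 and 1.91 and Rhbdl2 of 1.46, 2.37 and 3.00. The closest genes of Mme and Tacr2 were Galnt4 (0.83) and LOC102554693 (0.78), those of Tacr1 and Calcb were Psmb2 (0.77) and Olr668 (0.77), and that of Vip was Sugct (0.54). Of these, the genes given for Calcb, Vip, Mme, Tacr1 and Tacr2 are the first of 3 each. All arrays share these groups and scan dates, and no p-value is attached to the correlations.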

How the data were processed

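Cy3 signals of 36 arrays (1 per rat, 6 per group) were deposited as image analysis output of Feature Extraction 12.0.1.1 (per the labels), giving each spot's intensity before and after background correction. The authors also deposited a table of log2 values, which equals that intensity on the log2 scale after scaling to the array's 75th percentile and centering of each probe (median absolute difference 0.00177 over 1641055 values); it served as an alternative.

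Here the background-corrected intensity was put on the log2 scale, outlier spots (232 to 596 per array, as marked in the files) were left out, and spots of a probe were averaged. Probes above the 95th percentile of 308 negative controls on at least 6 arrays were kept and quantile normalized, and the probe with the highest mean stood for a gene. The methods of the study name a batch correction without its variable, so no batch entered the main model. Means of the 6 groups were fitted to all 36 arrays in limma 3.58.1 (R 4.3.3), with Benjamini–Hochberg adjustment over 23721 genes per comparison. Calls needed a 2-fold change or more with an adjusted p below 0.05. Fold changes against the detection level compared the group means. In the dimmer group, each array counted with its lowest signal well above background, or with the gene's own signal where higher. These fold changes are no lower bounds, since the normexp correction gave smaller changes. The model was tested on simulated data. The number of arrays limits the precision.

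The 8 genes and all lists were chosen with earlier results of these data known. Pathway genes were named if called or if of the smallest adjusted p in their list, and others for their role or place, as stated beside them. Alternatives changed the scaling, background correction, filter, probe summary, samples fitted, blocks, threshold and rats included. Symbols were matched to the RefSeq table of GRCr8 (8 of 8 found). Figures used Python 3.11.15 and matplotlib 3.10.9. A rat genome sequence was not used here. Some genes that the naming rule selects are not reported here.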

Additional observations from a re-analysis of the deposited data

Results flagged for a closer look

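In 54 sets of 6 rats (9 probes in 6 groups), 3 had a lowest or highest rat standing apart by Dixon's test at the 95% level, and chance gives about 1 in 20. Scn10a was 4.80 in DQ-12 rat 5 of D1, with the other 5 rats of the group between 6.92 and 7.66. Tac1 was 8.77 in vehicle rat 4 of D180, the lowest of its group and still above all DQ-12 rats. Calcb was 6.99 in vehicle rat 1 of D30, the highest of its group.

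The differences of Mme at D1 and D30 had opposite signs: all 6 DQ-12 rats were below the vehicle mean at D1 and all 6 above it at D30. The changes differed by 0.67 on the log2 scale. As an interaction term in limma, the difference had an SE of 0.17 and an adjusted p of 0.0312 over all genes, and that between D180 and D1 was 0.58 with an adjusted p of 0.0486. These values are not independent evidence, since the gene was chosen with the contrasts known, and they are the 2 that passed among such terms for 8 genes and 3 pairs of time points each.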

How the results depend on the processing

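With scan date or slide as a fixed block, the calls of the 8 genes at D1 were lost, and with slide also those at D180. Of the pathway genes, Iapp was still called at D1, and Bdkrb2 (lower) was called at D180 with slide. Fewer of all genes tested were called in these fits as well. At D1 they compare the groups through 1 vehicle array, and slide at D180 through 1 rat of each group, so nothing is read from their counts. With scan date as a random block, 1 pathway gene was called at D1, and with the normexp background correction 0 at D30. At an FC of at least 1.5, the pathway calls were 6 (3 higher, 3 lower), 2 (2 higher, 0 lower) and 20 (3 higher, 17 lower) at D1, D30 and D180. The share of all genes at that FC was not taken, and nothing is read from counts at it. In vehicle rats, 0 genes (in place of 1) were called from D30 to D180 with scaling to the 75th percentile, normexp, the deposited table and either random block (slide as a random block was chosen after seeing the data). From D1 to D180, 2 (in place of 1) were called with that scaling and with the deposited table, and 0 with normexp, and from D1 to D30, 2 (in place of 0) at an FC of at least 1.5. The cause was not tested. These vehicle contrasts could not be fitted with fixed blocks, and Tacr1, Vip and Penk had no value where every array of at least 1 group had to be well above background.

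Leaving out 1 rat gave 3 to 3, 2 to 3 and 2 to 4 of the 8 genes called at D1, D30 and D180, 2 to 3, 1 to 1 and 3 to 4 pathway genes, and 0 to 0, 0 to 1 and 1 to 2 in vehicle rats from D1 to D30, D30 to D180 and D1 to D180. Calca was lost without vehicle rat 3, DQ-12 rat 1 or DQ-12 rat 3 of D180. Tacr1 was gained at D30 without vehicle rat 4, DQ-12 rat 2 or DQ-12 rat 5, and at D180 without vehicle rat 6. No direction of a called value reversed under these alternatives.

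Same-numbered rats were not paired: the deviations of 18 pairs correlated between −0.148 and 0.227, 6 of them over 0.1. With the replicate number as a block, 3, 2 and 3 of the 8 genes, 2, 1 and 3 pathway genes, and 0, 1 and 1 genes in vehicle rats were called, as without it, and Calcb in vehicle rats from D1 to D30 had an adjusted p of 0.0632. Scn10a, Tacr1, Vip and Penk were limited by signal over background.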
